A study of Mus musculus with 4 samples.

Results

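The nuclear-encoded subunits of the mitochondrial respiratory chain were followed in tumor-associated macrophages (TAMs) as 85 of the 54532 genes of the deposited count table. Members were the protein-coding genes whose symbols begin with Ndufa, Ndufb, Ndufc, Ndufs or Ndufv and a digit (complex I), are Sdha to Sdhd (complex II), or begin with Uqcr (complex III), Cox4 to Cox8 (complex IV) or Atp5 (complex V, the ATP synthase). They fell into 35 genes of complex I, 4 of complex II, 8 of complex III, 20 of complex IV and 18 of complex V. Ndufa4 and its paralog Ndufa4l2 were counted with complex IV, where the NDUFA4 protein is now placed despite its name. Atp5o had 2 entries, and the second, a separately annotated locus, held at most 3 counts in any library.

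TAMs came from tumors of NB9464, a murine neuroblastoma line with amplified MYCN, in syngeneic mice of C57BL/6 background. All mice received the same number of NB9464 cells, and tumors were taken on day 40. No drug treatment is named for them, but the series title names adoptive transfer. SykMC-KO mice carry floxed Syk alleles and a Cre recombinase driven from the lysozyme M gene, which is active in myeloid cells and not in macrophages alone, and SykMC-WT mice are their wild type controls. CD11b and F4/80 beads selected the cells magnetically, and polyA RNA was sequenced from 2 libraries per genotype, called M7 and M8 for SykMC-WT and M9 and M10 for SykMC-KO. The labels also name bone marrow-derived macrophages at the RNA step and do not say whether the libraries came from separate animals, so p-values measure the spread between these libraries, which may be technical.

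Electrons from NADH enter the chain at complex I and those from succinate at complex II, pass through ubiquinone to complex III and through cytochrome c to complex IV, and reduce oxygen to water. Complexes I, III and IV pump protons across the inner mitochondrial membrane, and complex V uses the gradient to make ATP. Complex II is encoded wholly in the nucleus, whereas the other complexes combine nuclear-encoded subunits with a few encoded by mitochondrial DNA. In macrophages, oxidative phosphorylation is a main energy source of resting and alternatively activated cells, whereas inflammatory activation is known to favour glycolysis.

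Total counts ranged from 20755886 to 23518045 per library, and 3 counts, the smallest signal taken as detectable, corresponded to 0.109 to 0.163 CPM (counts scaled to a common library total after TMM normalization). That floor covers counting error only. Syk, the deleted gene, was higher in the libraries labelled SykMC-KO under TMM normalization, but not past the test with macrophage markers as the scale (0.07) and turned to -0.62, also not past it, with pan-leukocyte markers. It stood at 27.9 CPM in M7 and 23.2 in M8, against 196 in M9 and 160 in M10 (log2 fold change 2.80, SE 0.194, edgeR adjusted p = 0.000674), and the median of the macrophage markers was 2.82. Every direction below is therefore given for the libraries as labelled, and whether the labels of the genotypes were exchanged was not tested. Macrophage markers rose in 10 of 10 cases, with a summed level of 917 to 1290 CPM in SykMC-WT and 6220 to 10400 CPM in SykMC-KO. The 6 pan-leukocyte markers rose as well, from 286 to 385 CPM in SykMC-WT to 3140 to 4460 CPM in SykMC-KO. Fibroblast markers fell in 5 of 8 cases, from a summed 12400 to 14200 CPM in SykMC-WT to 4000 to 4880 CPM in SykMC-KO, and pericyte and smooth muscle markers in 7 of 10, from 693 to 703 CPM to 181 to 246 CPM. Endothelial markers fell in 3 of 8 cases, T cell markers rose in 5 of 8, and all 4 neutrophil markers that could be tested, of 8, rose. The T cell markers Cd3d, Cd3e and Cd3g passed the filter on low counts only through their SykMC-KO counts, so their calls are descriptions. Of 8 sympathoadrenal tumor markers, Th and Dbh were at 0 in every library, 4 could be tested and 1 (Gata3) rose. Gata3 had 5 counts in M7 and 7 in M8, against 24 in M9 and 40 in M10. It too passed the filter only through its SykMC-KO counts. The summed level of the tumor markers was 270 to 308 CPM in SykMC-WT and 187 to 296 CPM in SykMC-KO. Nearly all of it came from Hand2 (262 CPM in M7 and 301 in M8, against 178 in M9 and 286 in M10). Mitochondrially encoded genes took 2.2% to 2.34% of the counts in SykMC-WT, 6% in M9 and 15.9% in M10. The markers and the mitochondrial share moved with genotype together with every difference described here, and their part in it was not tested. In such bulk RNA, fewer cells of a type and less RNA per cell cannot be told apart.

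The first question was how far the subunits moved together between the genotypes. Of the 85 members, 80 passed the expression filter, and 61 of these rose in the libraries labelled SykMC-KO (edgeR's quasi-likelihood test, adjusted p under 0.05 over 16451 genes), 0 fell and 19 did not pass the test. At an unadjusted p under 0.05, 71 members were higher and 0 lower by edgeR, and the DESeq2 Wald test also called 0 lower. Among all genes tested, 22.7% rose and 16.7% fell, 39.4% in all. The median log2 fold change of the 80 members was 0.96 (interquartile range 0.68 to 1.18), whereas that of all genes tested was 0.02. The 61 include Cox6a2, which passed the filter only through its SykMC-KO counts and is given below as a lower bound. Apart from Cox6a2, the log2 fold changes of the genes that rose ranged from 0.49 to 2.15. The median rise of all 61 was 2.06-fold. Both SykMC-KO libraries lay above both SykMC-WT libraries for 76 of the 80 members, against 38.0% of all genes tested, and both lay below for 2 members (Ndufa4l2 and Atp5s), against 37.2%.

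These directions are relative to TMM normalization, which put the median of all genes at 0.02, and they reversed when the libraries were scaled to cell markers. With the 10 macrophage markers as the reference, 75 members fell and 0 rose (also 0 at an unadjusted edgeR p under 0.05). The median was then -1.77 for the members and -2.70 for all genes, of which 86.3% fell and 0.833% rose. With the library total alone as the reference, 18 members rose and 2 (Ndufv1 and Ndufa4l2) fell. The median was then 0.43 for the members and -0.52 for all genes, of which 10.2% rose and 32.9% fell. A scaling moves every gene of a library alike, so the distance between the members' median and that of all genes (0.95 under TMM) is nearly fixed by construction. Leaving out SykMC-WT library M8 or M7 reduced the number of members that rose, and the share of all genes that rose fell as well. The members' median was then 0.85 without M8 and 1.07 without M7.

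Summed over the members, the nuclear-encoded chain had 5640 CPM in M7 and 4830 in M8, against 10100 in M9 and 9070 in M10. Both SykMC-KO libraries lay above both SykMC-WT libraries, by 0.87 in log2 ratio. The exact permutation p (two-sided) was 0.333, the smallest that 4 libraries in these groups allow. Over all genes tested the summed CPM were also higher, by 0.54 in log2 ratio (817000 in M7 and 844000 in M8, against 1140000 in M9 and 1270000 in M10). As a share of total counts, the members held 0.689% in M7 and 0.572% in M8, against 0.886% in M9 and 0.713% in M10.

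**Figure D1:**
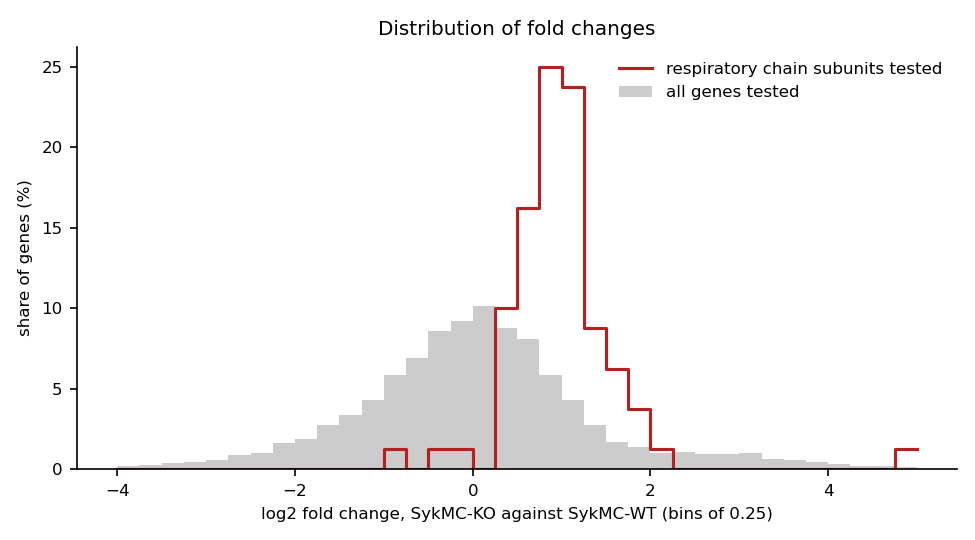
The share of genes (%) is plotted against the log2 fold change between the libraries labelled SykMC-KO and SykMC-WT in bins of 0.25, as grey bars for the 16451 genes tested and a red line for the 80 respiratory chain subunits tested, with fold changes outside -4 to 5 not drawn. The subunits lay to the right of the bulk of all genes, with a median of 0.96 against 0.02 under TMM normalization, while scaling to macrophage markers moved both medians below 0.

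**Figure D2:**
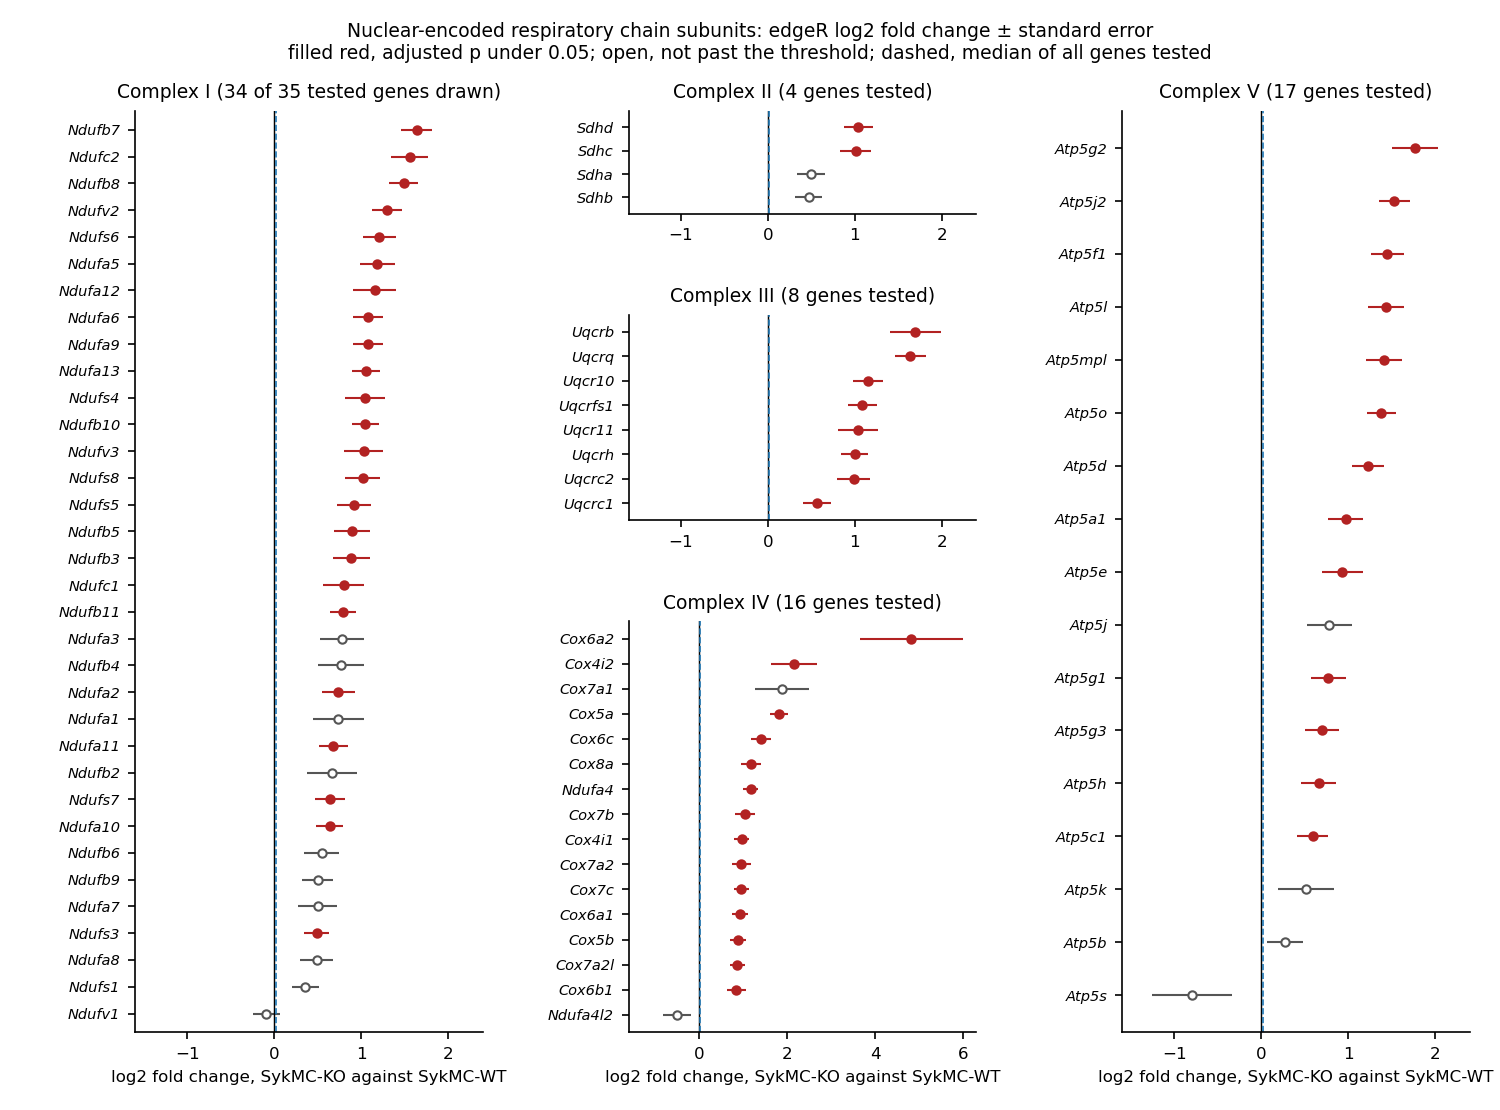
Each point is the log2 fold change of a subunit gene between the libraries labelled SykMC-KO and SykMC-WT under TMM normalization, with its standard error, in panels by complex (the axis of complex IV is wider). Filled red points passed an adjusted p of 0.05, open points did not, and 1 tested gene of complex I is not drawn. The dashed line marks the median of all genes tested. With macrophage markers as the reference 75 of the members fell, as did 86.3% of all genes tested.

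Genes of the chain share recognised promoter sequences, and the 300 bases around the start site (250 before and 50 after, RefSeq on GRCm38.p6) were found for 68 of the 84 member symbols, as 73 promoters. Of 4 motifs searched on both strands, the palindromic NRF1 motif, spelled by the longer run of capitals in the Atp5g2 sequence below, was in 5 of the 73 promoters (6.85%, against 0.971% of all 32851 promoters in the table). The GABPA (NRF2) motif CCGGAAG was in 16 (21.9%, against 8.86%), the YY1 motif AAGATGGCG in 7 (9.59%, against 1.4%) and the hypoxia element ACGTG in 19 (26.0%, against 19.6%). ACGTG occurs on both strands at the palindrome CACGTG, and the other motifs do not overlap it in the promoters shown. NRF1, GABPA and YY1 are transcription factors long known to bind genes of the chain, whereas ACGTG is the core bound by hypoxia-inducible factors. A match is a description of the sequence and not of binding. The promoters of the 4 members that rose and held at least 2 of the motifs are shown as the clearest cases, with the motifs in capitals. Each is on the minus strand of its chromosome and is written 5′ to 3′. Atp5j and Atp5k also held 2 of the motifs but did not pass the test and are not shown. Atp5g2 (chr15:102670998-102671297) had the NRF1 motif at -42, counted from the start site, and ACGTG on the other strand. Atp5l (chr9:44920693-44920992) had CCGGAAG on the other strand at -212 and 25 and the palindrome CACGTG. Cox6a1 (chr5:115348909-115349208) had the NRF1 motif at -162 and CCGGAAG on the other strand at -16. Uqcr11 (chr10:80406772-80407071) had CCGGAAG at -66 and ACGTG at -196.
Atp5g2: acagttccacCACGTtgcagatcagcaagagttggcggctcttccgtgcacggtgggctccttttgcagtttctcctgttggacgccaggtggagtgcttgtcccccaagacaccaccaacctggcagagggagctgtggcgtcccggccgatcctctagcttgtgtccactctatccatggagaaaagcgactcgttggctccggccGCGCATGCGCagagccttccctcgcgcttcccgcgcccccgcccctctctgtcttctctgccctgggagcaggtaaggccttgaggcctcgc
Atp5l: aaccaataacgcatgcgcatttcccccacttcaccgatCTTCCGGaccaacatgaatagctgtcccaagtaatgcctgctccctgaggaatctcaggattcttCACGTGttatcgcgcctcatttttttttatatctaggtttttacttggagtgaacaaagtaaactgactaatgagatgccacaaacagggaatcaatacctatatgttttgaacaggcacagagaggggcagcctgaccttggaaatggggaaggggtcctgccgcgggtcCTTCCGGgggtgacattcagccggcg
Cox6a1: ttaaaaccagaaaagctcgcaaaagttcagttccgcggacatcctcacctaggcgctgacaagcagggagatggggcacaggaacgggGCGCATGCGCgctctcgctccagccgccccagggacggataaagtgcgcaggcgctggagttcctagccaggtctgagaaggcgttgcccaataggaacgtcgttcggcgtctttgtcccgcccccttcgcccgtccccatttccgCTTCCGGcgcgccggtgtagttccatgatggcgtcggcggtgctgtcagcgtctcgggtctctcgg
Uqcr11: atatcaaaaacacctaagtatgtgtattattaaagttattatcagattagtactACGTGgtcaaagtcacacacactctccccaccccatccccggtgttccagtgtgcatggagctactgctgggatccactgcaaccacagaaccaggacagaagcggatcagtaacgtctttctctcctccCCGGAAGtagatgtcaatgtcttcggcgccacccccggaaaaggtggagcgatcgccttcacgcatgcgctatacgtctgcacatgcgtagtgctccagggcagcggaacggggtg

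Complex I, the NADH:ubiquinone oxidoreductase, moved unevenly, with larger rises in its accessory shell than in several of its catalytic core subunits. In the libraries labelled SykMC-KO, 24 of its 35 genes rose, 0 fell and 11 did not pass the test (68.6% rose, against 22.7% of all genes), with a median log2 fold change of 0.80. Without M8 fewer of them rose, as did fewer of all genes, and their median was 0.72. Of the 28 accessory genes, 20 rose and the median was 0.90. Of the 7 core genes, which as a set carry the flavin and the iron-sulfur clusters, 4 rose and the median was 0.49. The difference between core and accessory genes was noticed in these values and is given as a description.

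The largest rise in complex I was that of Ndufb7, an accessory subunit on the intermembrane face of the membrane arm (chr8:83566671-83571626, GRCm38), with 23.0 CPM in M7 and 19.0 in M8, against 68.8 in M9 and 62.3 in M10. Its SykMC-KO libraries were about alike and well above both SykMC-WT libraries (log2 fold change 1.64, SE 0.175, edgeR adjusted p = 0.00161). Ndufc2, an accessory subunit of the membrane arm, had 26.1 CPM in M7 and 19.1 in M8, against 73.0 in M9 and 60.3 in M10. It rose by 1.56 on the log2 scale (SE 0.213, edgeR adjusted p = 0.00321) without overlap of the groups. Ndufb8, also of the membrane arm and a common antibody target for complex I, had 38.1 CPM in M7 and 32.3 in M8, against 105 in M9 and 93.1 in M10. Its log2 fold change was 1.49 (SE 0.168, edgeR adjusted p = 0.00185), again with the groups apart. Ndufa2, an accessory subunit of the matrix arm, had the highest level per transcript length in complex I, with a mean of 268 TPM over the 4 libraries. It rose from 71.1 and 56.0 CPM in SykMC-WT to 115 and 97.1 CPM in SykMC-KO (log2 fold change 0.74, SE 0.186, edgeR adjusted p = 0.0228).

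Among the core subunits, Ndufv1, which binds NADH and the flavin (chr19:4007384-4012806), had 112 CPM in M7 and 113 in M8, against 99.3 in M9 and 112 in M10. The groups overlapped, and the log2 fold change was -0.09 (SE 0.153, edgeR adjusted p = 0.683). Its partner in the same module, Ndufv2, an iron-sulfur subunit (chr17:66078638-66101559), had 46.7 CPM in M7 and 37.5 in M8, against 105 in M9 and 102 in M10. Ndufv2 rose by 1.30 (SE 0.171, edgeR adjusted p = 0.00289), and its SykMC-KO libraries were nearly equal. Ndufs1, the largest iron-sulfur subunit, had 69.4 and 68.2 CPM in SykMC-WT and 81.0 and 95.3 CPM in SykMC-KO, and its log2 fold change of 0.36 missed the threshold (SE 0.157, edgeR adjusted p = 0.116). The core genes Ndufs3, Ndufs7 and Ndufs8 rose by 0.49, 0.64 and 1.02. The call of Ndufs3 was narrow: it was lost with DESeq2 size factors (0.45), with the DESeq2 Wald test (0.45), with either other filter on low counts (0.48 and 0.42), with mitochondrially encoded and rRNA-like genes left out (0.41) and without M7, M8 or M9 in turn (0.39 to 0.50), and with library size alone it was -0.04.

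Ratios of subunits within a library do not depend on how libraries are scaled, and these pairs were chosen after the values were seen, so they carry no test. The counts of Ndufv1 were 2.4 times those of Ndufv2 in M7 and 3.02 times in M8, but 0.945 times in M9 and 1.11 times in M10. Ndufs1 to Ndufv2 went from 1.49 in M7 and 1.82 in M8 to 0.77 in M9 and 0.938 in M10. In both ratios the genotypes were apart, with Ndufv1 and Ndufs1 holding a smaller part of their pairs in the libraries labelled SykMC-KO.

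The accessory genes that did not pass the test were Ndufa1, Ndufa3, Ndufa7, Ndufa8, Ndufb2, Ndufb4, Ndufb6 and Ndufb9, with log2 fold changes from 0.49 to 0.78, and in each the SykMC-KO libraries lay above the SykMC-WT libraries. Ndufb4 counts have a competing locus, Ndufb4c, annotated as a processed pseudogene on chromosome 15, whose counts were 1.54 to 2.70 times those of Ndufb4 in the 4 libraries. Ndufb4 had 6.42 CPM in M7 and 6.27 in M8, against 11.7 in M9 and 9.92 in M10, and its log2 fold change of 0.77 missed the threshold (SE 0.265, edgeR adjusted p = 0.0602). Adding the Ndufb4c counts, an alternative chosen after seeing the data, brought Ndufb4 past it, to 62 members that rose.

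Complex II, succinate dehydrogenase, split between its catalytic subunits and its membrane anchors. Both anchors, Sdhc and Sdhd, rose, and the test was missed by Sdha and Sdhb. In all, 2 of the 4 genes rose (50%, against 22.7% of all genes), with a median of 0.76. Sdha, the flavoprotein that oxidises succinate, had 131 CPM in M7 and 119 in M8, against 188 in M9 and 166 in M10 (log2 fold change 0.50, SE 0.163, edgeR adjusted p = 0.0510). Sdhb, the iron-sulfur subunit and the most abundant of the complex per principal transcript length but not per summed exon length (mean 140 TPM), had 77.8, 66.4, 103 and 97.2 CPM in M7, M8, M9 and M10 (log2 fold change 0.47, SE 0.158, edgeR adjusted p = 0.0554). For both genes the groups did not overlap, and the values lay just outside the threshold. Sdhc, which helps to hold the heme and the quinone, had 88.4 CPM in M7 and 80.4 in M8, against 187 in M9 and 153 in M10 and rose by 1.01 (SE 0.174, edgeR adjusted p = 0.00657). Sdhd, the other anchor, had 61.4 CPM in M7 and 51.1 in M8, against 121 in M9 and 110 in M10 and rose by 1.04 (SE 0.166, edgeR adjusted p = 0.00528). Within libraries, Sdha to Sdhc counts went from 1.49 and 1.48 in SykMC-WT to 1.0 and 1.08 in SykMC-KO. Sdhb to Sdhd counts went from 1.27 and 1.30 to 0.853 and 0.881, so in both pairs the catalytic gene held a smaller part in the libraries labelled SykMC-KO. Without M10, Sdha and Sdhb passed the test as well, in a fit where more of all genes rose. Without M8 no gene of the complex passed, in a fit where fewer of all genes rose.

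Complex III passes electrons from ubiquinol to cytochrome c. All 8 of its genes rose in the libraries labelled SykMC-KO under TMM normalization (100%, against 22.7% of all genes). With macrophage markers as the scale, however, their median was -1.68. Without M8 fewer of the 8 rose, as did fewer of all genes, and their median was 0.99. With all 4 libraries the median log2 fold change was 1.07, with the smallest, 0.57, for Uqcrc1, a large structural core protein. The Rieske iron-sulfur protein Uqcrfs1 rose by 1.09.

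Uqcrb, which lies near the ubiquinone site (chr13:66900617-66905378), had 30.3 CPM in M7 and 26.3 in M8, against 118 in M9 and 65.4 in M10. Both SykMC-KO libraries were above both SykMC-WT libraries, but M9 and M10 were themselves far apart (log2 fold change 1.70, SE 0.291, edgeR adjusted p = 0.00659). Uqcrq, a small subunit of the membrane region, had 37.8 CPM in M7 and 29.3 in M8, against 107 in M9 and 102 in M10. Its rise of 1.64 (SE 0.181, edgeR adjusted p = 0.00177) was alike in M9 and M10. Uqcr10, another small membrane subunit, had 39.0, 31.9, 83.2 and 73.8 CPM in the 4 libraries and rose by 1.15 (SE 0.174, edgeR adjusted p = 0.00448). Uqcrh, the hinge protein at the docking site of cytochrome c, was the most abundant per transcript length (mean 392 TPM) and had 84.8 and 78.9 CPM in SykMC-WT and 158 and 169 CPM in SykMC-KO (log2 fold change 1.0, SE 0.153, edgeR adjusted p = 0.00463). The counts of Uqcrb stood to those of Uqcrc1 as 0.247 in M7 and 0.249 in M8, against 0.691 in M9 and 0.390 in M10.

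Complex IV, cytochrome c oxidase, is built from general subunits and, in some tissues, alternative isoforms. All 11 genes of the general isoforms rose under TMM normalization (all 11 were lower with macrophage markers as the scale), by 0.85 to 1.81 with a median of 0.97. Of the 8 alternative isoforms, known from muscle, lung, testis or hypoxic cells, 4 could be tested and 2 rose. These were Cox4i2 and Cox6a2, and Cox6a2 passed the filter only through its SykMC-KO counts. Cox7a2l, classed here as a supercomplex factor, rose by 0.87, and its function in these mice was not tested. In all, 14 of the 16 genes tested rose (87.5%, against 22.7% of all genes), with a median of 1.01. Without M8 fewer of them rose, as did fewer of all genes, and their median was 0.91.

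Cox5a, which binds a regulatory thyroid hormone metabolite and belongs to an early assembly module (chr9:57521274-57532426), had 43.3 CPM in M7 and 34.2 in M8, against 154 in M9 and 118 in M10. This was the largest rise among the general subunits (log2 fold change 1.81, SE 0.208, edgeR adjusted p = 0.00198), with the groups well apart. Cox5b, the zinc-binding subunit, rose by 0.88 (SE 0.179, edgeR adjusted p = 0.0115), and the ratio of Cox5a to Cox5b counts went from 0.408 and 0.394 in SykMC-WT to 0.813 and 0.715 in SykMC-KO. Cox4i1, a large nuclear-encoded subunit and the most abundant per transcript length (mean 788 TPM), had 242 CPM in M7 and 216 in M8, against 438 in M9 and 460 in M10 (log2 fold change 0.97, SE 0.173, edgeR adjusted p = 0.00745). Cox6c rose by 1.41, Cox8a by 1.18, Ndufa4 by 1.17, Cox7b by 1.05, Cox7a2 and Cox7c by 0.96 each, Cox6a1 by 0.93 and Cox6b1 by 0.85. The general isoforms outside Cox5a and Cox6c thus lay between 0.85 and 1.18.

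**Figure D3:**
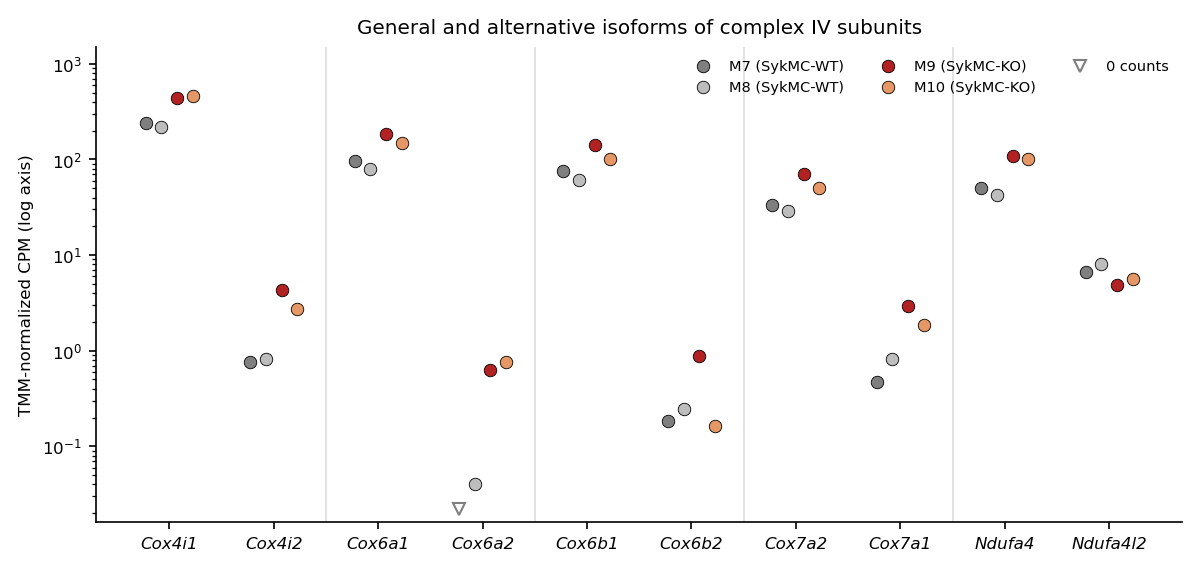
Levels of general and alternative isoforms of complex IV subunits are given as TMM-normalized CPM on a log axis, with a point for each library (greys SykMC-WT, reds SykMC-KO) and an open triangle for 0 counts. Each general isoform lay above its alternative in every library (also per transcript length), and Ndufa4l2 differed from the other isoforms in having its SykMC-KO libraries below its SykMC-WT libraries under TMM; with macrophage markers as the scale the tested genes drawn, other than Cox6a2, were lower in SykMC-KO.

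Cox4i2, the lung- and hypoxia-associated isoform of Cox4i1 (chr2:152754173-152765037), had 21 counts in M7 and 20 in M8, against 89 in M9 and 50 in M10. It rose by 2.15 (SE 0.519, edgeR adjusted p = 0.0199), yet Cox4i1 still had 101 counts for each Cox4i2 count in M9 and 169 in M10, after 316 in M7 and 266 in M8. Cox6a2, the heart and muscle isoform of Cox6a1 (chr7:128205435-128206387), had 0 counts in M7 and 1 in M8, against 13 in M9 and 14 in M10. It was at least 6.02-fold higher in the libraries labelled SykMC-KO when the SykMC-WT libraries were set to the floor of 3 counts each. Cox6a2 passed the expression filter only through its SykMC-KO counts, so its call is given as a description and carries no p. The calls of Cox4i2 and Cox6a2 were each lost without M7 and without M8. The log2 fold change of Cox4i2 was about as large in those fits, at 2.11 without M7 and 2.19 without M8. Cox6a2 shares 70 exon bases with Itgad, a leukocyte integrin gene on the opposite strand that had 9 counts in M7 and 19 in M8, against 92 in M9 and 139 in M10, and whether the counting used strand is not given in the sources used here. Cox7a1, the heart and muscle isoform of Cox7a2, had 13 counts in M7 and 20 in M8, against 60 in M9 and 34 in M10, and its log2 fold change of 1.88 stood at the threshold (SE 0.610, edgeR adjusted p = 0.05). It passed when genes with at least 10 counts in every library were tested. Of 8 skeletal muscle markers, 5 could be tested, 0 rose and 2 fell, and their summed level was 8.57 to 9.48 CPM in SykMC-WT and 3.59 to 6.48 CPM in SykMC-KO. The part of muscle RNA in the values of these isoforms was not tested.

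Cox6b2, a testis isoform, had 5, 6, 18 and 3 counts in M7, M8, M9 and M10 and was not tested. Cox7b2 and Cox8c, also testis isoforms, and Cox8b, a muscle isoform, were at 0 in every library, and the germ cell marker list had no gene that could be tested. Ndufa4l2, the hypoxia-induced paralog of Ndufa4 (chr10:127514967-127517154), had 184 counts in M7 and 197 in M8, against 100 in M9 and 102 in M10. Its log2 fold change of -0.50 did not pass the test (SE 0.309, edgeR adjusted p = 0.239). As a share of the pair it was 11.6% in M7 (exact 95% binomial interval 10.1% to 13.3%) and 15.8% in M8 (13.8% to 17.9%), against 4.3% in M9 (3.51% to 5.2%) and 5.15% in M10 (4.22% to 6.21%). These intervals cover counting error only, and those of the genotypes did not overlap. Pericyte and smooth muscle markers, which fell in 7 of 10 cases, and Epas1, the gene of a hypoxia-inducible factor, which fell by 1.22 on the log2 scale (SE 0.162, edgeR adjusted p = 0.00294), moved in the same direction as Ndufa4l2, and their part in it was not tested.

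Complex V, the ATP synthase, rose in most of its genes but not in its catalytic beta subunit. In the libraries labelled SykMC-KO, 13 of its 17 tested genes rose (76.5%, against 22.7% of all genes). Of the others, 0 fell and 4 did not pass the test, and the median of the complex was 0.93. Without M7 or M8 fewer of its genes rose, as did fewer of all genes. The median of the complex was 1.05 without M7 and 0.8 without M8. The catalytic head (F1) had 4 of 5 genes rise, the c ring 3 of 3, the peripheral stalk 3 of 4 and the small membrane subunits 3 of 4.

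The alternating subunits of the head went apart. Atp5a1, the alpha subunit, had 550 CPM in M7 and 489 in M8, against 942 in M9 and 1090 in M10 and rose by 0.97 (SE 0.204, edgeR adjusted p = 0.0129). Atp5b, the catalytic beta subunit (chr10:128083273-128090391), had 644 CPM in M7 and 518 in M8, against 739 in M9 and 661 in M10, and its log2 fold change of 0.27 missed the threshold (SE 0.207, edgeR adjusted p = 0.335). The groups of Atp5b did not overlap, but their means of 581 and 700 CPM lay no further apart than M7 and M8 did. Within libraries, Atp5b counts were 1.17 times those of Atp5a1 in M7 and 1.06 times in M8, but 0.785 times in M9 and 0.606 times in M10. The proteins stand in equal number in the enzyme. These ratios are not scaled by length, so they compare libraries and not the levels of the genes. Of the other head genes, Atp5d rose by 1.23, Atp5e by 0.93 and Atp5c1, the central shaft, by 0.59.

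Atp5g2, a gene of the proton-carrying c ring whose promoter is printed above (chr15:102662864-102672352), had 7.69 CPM in M7 and 5.25 in M8, against 23.3 in M9 and 21 in M10. It showed the largest rise in complex V (log2 fold change 1.77, SE 0.266, edgeR adjusted p = 0.00438), with the groups apart. Its paralogs Atp5g1 and Atp5g3, which encode the same mature c subunit, rose by 0.77 (SE 0.199, edgeR adjusted p = 0.0244) and 0.70 (SE 0.193, edgeR adjusted p = 0.0304). Atp5g2 counts were 0.0591 and 0.0473 of those of Atp5g3 in SykMC-WT and 0.106 and 0.123 in SykMC-KO, while Atp5g1 held between 0.360 and 0.391 of Atp5g3 in every library.

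In the stalk, Atp5f1 (subunit b) had 127 CPM in M7 and 101 in M8, against 321 in M9 and 302 in M10, and rose by 1.45 (SE 0.185, edgeR adjusted p = 0.00256). Atp5h (subunit d), the most abundant of the complex on the first of these lengths only (mean 713 TPM), had 219, 174, 281 and 339 CPM in the 4 libraries and rose by 0.66 (SE 0.199, edgeR adjusted p = 0.0397). Its rise passed the test narrowly. With mitochondrially encoded and rRNA-like genes left out the log2 fold change was 0.57 and missed the threshold, as it did with library size alone, without M7 and without M8. Atp5o (the oligomycin sensitivity protein) rose by 1.38, and Atp5j (coupling factor 6) had a log2 fold change of 0.78 that missed the threshold (edgeR adjusted p = 0.0534). Among the small membrane subunits, Atp5j2 (subunit f) had 46.6 CPM in M7 and 38.4 in M8, against 131 in M9 and 115 in M10 and rose by 1.53 (SE 0.174, edgeR adjusted p = 0.00191). Atp5l (subunit g) rose by 1.43 and Atp5mpl by 1.41, whereas Atp5k (subunit e) was 48.2 CPM in M9 and 24.1 in M10, beside 26.9 and 24.1 in SykMC-WT, and did not pass. Atp5s, a coupling factor kept in the gene family by name, had 4.34 CPM in M7 and 5.0 in M8, against 3.54 in M9 and 1.80 in M10 and a log2 fold change of -0.80 (SE 0.462, edgeR adjusted p = 0.210). Without M9 it was the 1 member called lower.

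**Figure D4:**
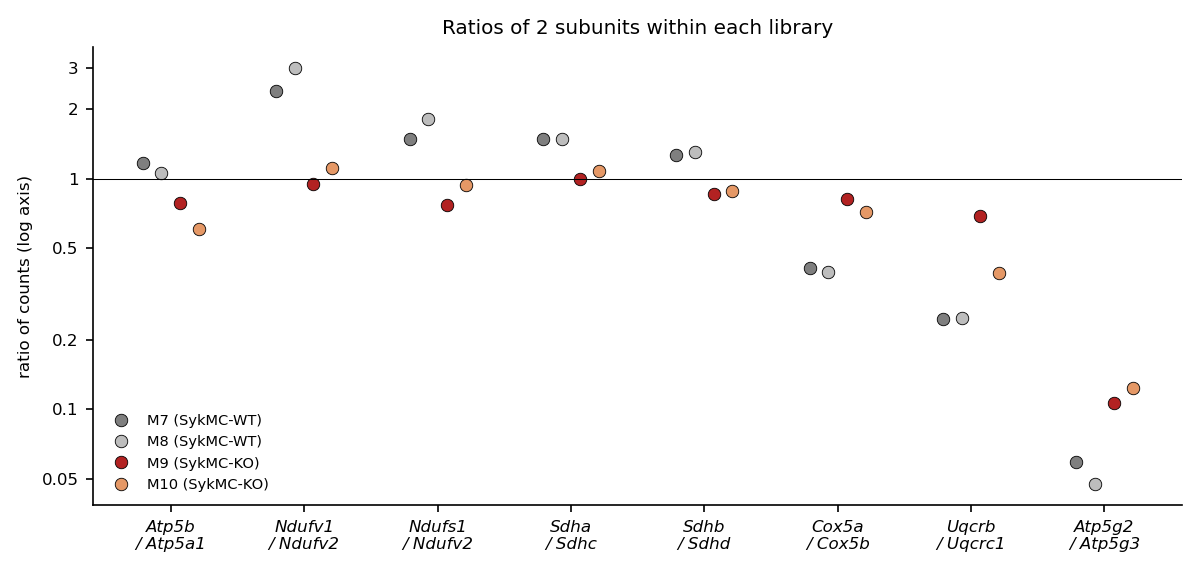
For 8 pairs of subunits of the same complex, the ratio of their counts is plotted on a log axis with a point for each library (greys SykMC-WT, reds SykMC-KO), a measure that no scaling of the libraries changes. In every pair the SykMC-WT points and the SykMC-KO points lay apart, for example 2.4 and 3.02 against 0.945 and 1.11 for Ndufv1 to Ndufv2; the pairs were chosen after their values were seen.

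The libraries of a genotype also differed from each other across the chain. M8 was below M7 for 72 of the 80 members (median log2 ratio -0.24) and M10 was below M9 for 65 (median -0.24), whereas over all genes these medians were -0.02 and 0.00. The median difference between genotypes, 0.96, was larger than either. Across the 80 members, the log2 fold change fell with transcript length (Pearson r -0.269, Spearman rho -0.272), and the ratio of M10 to M9 rose with it (r 0.332, rho 0.351). Over all 16443 genes with a length these r were -0.104 and 0.0362. The genes share the libraries and are not independent, so no p is given.

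The mitochondrially encoded subunits rose further than their nuclear partners. All 13 rose (log2 fold change 2.0 for mt-Atp8 to 4.28 for mt-Nd6, edgeR adjusted p from 0.00353 to 0.0154), with a summed 17200 CPM in M7 and 17900 in M8, against 63800 in M9 and 186000 in M10. The SykMC-WT libraries were alike, M9 lay above both of them and M10 far above M9. For each nuclear-encoded count of complexes I to V there were 3.05 mitochondrially encoded counts in M7 and 3.70 in M8, against 6.31 in M9 and 20.5 in M10. By complex, the ratio in M7, M8, M9 and M10 was 2.67, 3.12, 6.00 and 23.7 for complex I and 8.44, 10.9, 16.5 and 50.9 for complex IV. The order of the libraries was the same in complexes III and V.

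**Figure D5:**
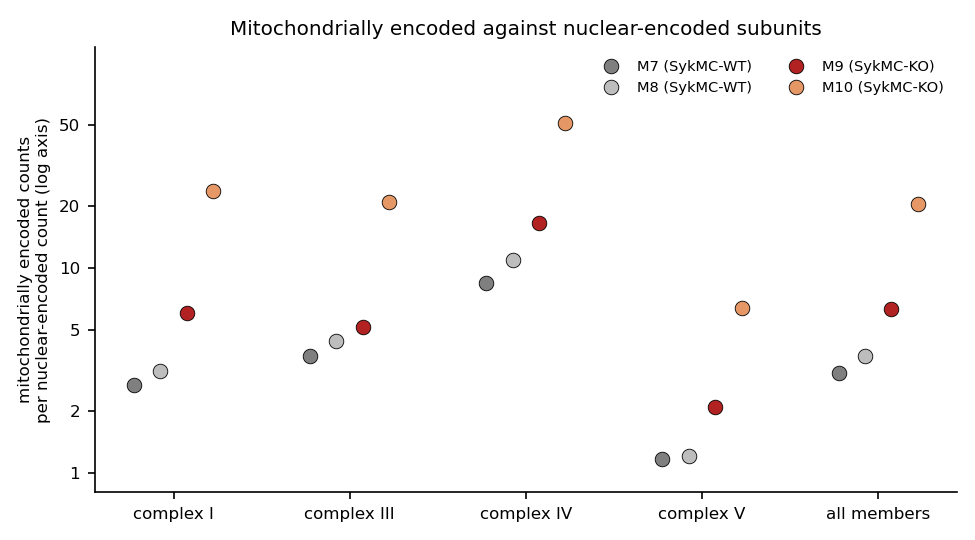
The number of mitochondrially encoded counts per nuclear-encoded count is plotted on a log axis for complexes I, III, IV and V and for all members, with a point for each library (greys SykMC-WT, reds SykMC-KO). M10 stood highest everywhere (20.5 over all members), M9 next (6.31), and the SykMC-WT libraries lowest (3.05 and 3.70).

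Genes that work with the chain were counted by lists. Of 11 subunits and electron carriers outside the symbol rule, 7 rose (63.6%, beside 22.7% of all genes tested) and 1 fell (9.09%, beside 16.7%). Their median was 0.84. Cytochrome c (Cycs) rose by 1.21, the complex III subunit cytochrome c1 (Cyc1) by 0.49, the complex I acyl carrier subunit Ndufab1 by 1.10 and the ATP synthase inhibitor Atpif1 by 1.19, while Coq9, which serves ubiquinone synthesis, fell by 0.69. Of 15 genes of the TCA cycle and pyruvate dehydrogenase, which feed electrons into the chain, 8 rose (53.3%, beside 22.7%) and 0 fell (beside 16.7%). Their median was 0.49, and those that rose included citrate synthase (Cs, 0.97) and fumarase (Fh1, 1.02).

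Assembly factors, which build the complexes without being part of them, had 17 of 47 genes that rose (36.2%, beside 22.7% of all genes tested) and 1 that fell, with a median of 0.62. Those that rose furthest were the copper chaperone Cox17 (1.83) and the complex III factor Uqcc3 (1.56), and Cox11, also a copper chaperone, fell by 0.83. Of 14 regulators of the chain, 13 could be tested. Among these, 2 rose (15.4%, beside 22.7% of all genes tested) and 1 fell (7.69%, beside 16.7%), with a median of 0.07. The list is too short to set these shares apart from those of all genes. Esrra, a nuclear receptor that drives genes of oxidative metabolism, rose by 0.65 (SE 0.156, edgeR adjusted p = 0.0199) and Nrf1 by 0.55 (SE 0.176, edgeR adjusted p = 0.0490). The ETS factor gene Gabpa (-0.16), the mitochondrial transcription factor Tfam (0.04) and Hif1a (0.18) did not pass the test. Ppargc1a, the coactivator known for mitochondrial biogenesis, had 4, 3, 0 and 1 counts in M7, M8, M9 and M10 and was too low to test.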

How the data were processed

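RNA from NB9464 TAMs was measured in 4 libraries. The authors mapped reads to mm10 and deposited integer read counts for each Ensembl gene, not normalized; the submitters' processing notes name STAR 2.6.1d, Salmon 1.4.0, SAMtools 1.9, Picard 2.26 and MultiQC 1.11. How whole counts were made from Salmon's estimates is not given in the sources used here. The study's methods name single reads in triplicate and the labels paired reads with 2 libraries per genotype; the series title names adoptive transfer. Symbols came from GENCODE M21, which matched 54495 rows of the 54532. Genes passing filterByExpr were normalized by TMM (factors 1.22, 1.19, 0.876 and 0.787 in M7, M8, M9 and M10) and compared by edgeR 4.0.16 in R 4.3.3 (glmQLFit, glmQLFTest, Benjamini-Hochberg, threshold 0.05), with no block since the labels give no pairing. TPM used the median length of principal transcripts and only ranked genes. Counts of the libraries of a genotype differed beyond sampling noise (chi-square per degree of freedom 50.6 and 168). Sequences were RefSeq promoters of GRCm38.p6.

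The members and gene lists were chosen with earlier results of these data known. Genes named with values included, in each complex, the 3 called members with the largest fold change and the most abundant member. Paralogous isoforms and Sdha to Sdhd were also named. Others were chosen after their values were seen (Atp5b, Atp5s, Atp5a1, Ndufb4). So were the complex I core genes Ndufs1, Ndufs3, Ndufs7, Ndufs8, Ndufv1 and Ndufv2. Alternatives were other normalizations, marker scalings, filters, DESeq2 1.42.0, and each library left out. No protein sequences were used here, and some items are not reported here.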

Additional observations from a re-analysis of the deposited data

How the results depend on the processing

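The direction of the module rested on the scaling. With library size alone, 1677 genes were higher and 5411 lower, 18 members rose and 2 fell (4, 0, 2, 5 and 7 rose in complexes I to V), the members' median was 0.43, and the log2 ratios of summed counts were 0.25, 0.21, 0.51, 0.51 and 0.30 for complexes I to V. Of the 80 members tested 67 were positive, after 77 with TMM, and among the named genes those that turned negative were Ndufs1 -0.18, Ndufs3 -0.04, Sdha -0.03, Sdhb -0.06 and Atp5b -0.26.

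With macrophage marker scaling, 137 genes were higher and 14200 lower, 0 members rose in any complex and 75 fell. The members' median was -1.77, those of complexes I to V were -1.92, -1.98, -1.68, -1.72 and -1.83, and the ratios of summed counts were -1.94, -2.0, -1.69, -1.69 and -1.88. The log2 fold changes were in complex I Ndufa2 -1.98, Ndufb4 -1.98, Ndufb7 -1.08, Ndufb8 -1.23, Ndufc2 -1.16, Ndufs1 -2.34, Ndufs3 -2.24, Ndufs7 -2.06, Ndufs8 -1.74 and Ndufv2 -1.41. In complex II, Sdha -2.23, Sdhb -2.24, Sdhc -1.73 and Sdhd -1.68 were the values. In complex III, Uqcr10 -1.57, Uqcrb -1.11, Uqcrh -1.71 and Uqcrq -1.07 were the values. In complex IV, Cox4i1 -1.73, Cox4i2 -0.64, Cox5a -0.93, Cox5b -1.84, Cox6a1 -1.81, Cox6b1 -1.90, Cox6c -1.35, Cox7a1 -0.96, Cox7a2 -1.81, Cox7a2l -1.86, Cox7b -1.72, Cox7c -1.78, Cox8a -1.58 and Ndufa4 -1.54 were the values. In complex V, Atp5b -2.45, Atp5f1 -1.25, Atp5g1 -1.97, Atp5g2 -0.92, Atp5g3 -2.05, Atp5h -2.01 and Atp5j2 -1.19 were the values.

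With pan-leukocyte marker scaling, 71 genes were higher and 15092 lower, 0 members rose in any complex and 77 fell. The members' median was -2.45, those of complexes I to V were -2.62, -2.67, -2.37, -2.41 and -2.51, the ratios of summed counts were -2.63, -2.69, -2.38, -2.38 and -2.57, and Syk was -0.62. The log2 fold changes were in complex I Ndufa2 -2.68, Ndufb4 -2.66, Ndufb7 -1.77, Ndufb8 -1.93, Ndufc2 -1.85, Ndufs1 -3.04, Ndufs3 -2.92, Ndufs7 -2.76, Ndufs8 -2.42 and Ndufv2 -2.10. In complex II, Sdha -2.92, Sdhb -2.94, Sdhc -2.42 and Sdhd -2.37 were the values. In complex III, Uqcr10 -2.27, Uqcrb -1.78, Uqcrh -2.40 and Uqcrq -1.76 were the values. In complex IV, Cox4i1 -2.43, Cox4i2 -1.32, Cox5a -1.62, Cox5b -2.54, Cox6a1 -2.50, Cox6b1 -2.59, Cox6c -2.04, Cox7a1 -1.62, Cox7a2 -2.49, Cox7a2l -2.55, Cox7b -2.40, Cox7c -2.47, Cox8a -2.26 and Ndufa4 -2.24 were the values. In complex V, Atp5b -3.14, Atp5f1 -1.95, Atp5g1 -2.66, Atp5g2 -1.62, Atp5g3 -2.74, Atp5h -2.71 and Atp5j2 -1.89 were the values.

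Both marker scalings set all genes lower (medians of -2.70 and -3.39), and by construction each reverses what changed less than the markers.

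Where a call also needed a log2 change of 1 or more in size, 2426 genes were higher and 35 members rose (14, 5, 7 and 7 in complexes I, III, IV and V). With the DESeq2 Wald test, 61 members rose and their median stood 1.12 above that of all genes; with summed exon length in place of transcript length, an alternative chosen after seeing the data, mean TPM was 399 for Ndufa2, 106 for Sdhb, 257 for Uqcrh, 568 for Cox4i1 and 464 for Atp5h. Sdhd (181) then had the highest level of complex II in place of Sdhb, and Atp5a1 (634) that of complex V in place of Atp5h.

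Leaving out each library in turn gave 1478 to 5010 genes higher, 807 to 4745 lower, 17 to 73 members that rose and 0 to 1 that fell. Per complex I to V, 5 to 32, 0 to 4, 2 to 8, 3 to 14 and 7 to 15 rose; the members' median was 0.69 to 1.11, and 0.75 to 1.18 above that of all genes. The fewest members rose without M8 (17) and without M7 (44), and 58 and 73 rose without M9 and M10; a lone library was then assumed to vary like the other group, and the cause was not tested. Of 44 named genes, 43 kept direction and call with DESeq2 size factors and with the Wald test. The number was 42 with no filter and without mitochondrially encoded and rRNA-like genes, and 41 with at least 10 counts in every library. With library size alone it was 18, and with either marker scaling 0. Adding named pseudogenes changed no count, since all 6 held 0 counts. No paired analysis was possible because the labels give no replicate numbers that pair the libraries.

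With 2 libraries per genotype, an exact permutation test of a single value cannot give a p below 0.333, so every adjusted p rests on the spread shared across genes. Members with few counts, such as Cox6b2, were too low for the test.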

Other observations

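Of the members, 26 share exon bases with a gene on the opposite strand, and 19 of these (73.1%) rose under TMM normalization, beside 76.2% of all members tested. No strand setting of the counting is given in the sources used here, so reads of such partners cannot be told apart. Ndufb1-ps, which this annotation lists as a non-coding RNA and the symbol rule therefore left out, had 316 counts in M7 and 213 in M8, against 914 in M9 and 429 in M10, and its log2 fold change was 1.75 (SE 0.34, edgeR adjusted p = 0.0101). Among adipocyte markers, listed because brown fat is rich in respiratory chain, 1 of 8 could be tested, Fabp4, which macrophages also express and which rose by 1.37 (SE 0.169, edgeR adjusted p = 0.00232), and Ucp1 had at most 6 counts in any library.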
